A study of Mus musculus with 7 samples.

Results

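The Ikaros family is a group of zinc finger transcription factors, and all 5 of its genes were found by gene symbol among the 21902 genes on the arrays: Ikzf1 (Ikaros), Ikzf2 (Helios), Ikzf3 (Aiolos), Ikzf4 (Eos) and Ikzf5 (Pegasus). They were measured in regulatory T (Treg) cells, a class of CD4 T cell that depends on the factor Foxp3 and holds immune responses in check, sorted as CD4+ YFP+ from spleen and pLN of mouse chimeras. All chimeras carried Foxp3Cre, which places the recombinase Cre under the control of Foxp3. The 3 KO samples came from Foxp3CrePggt1bfl/fl chimeras, with both alleles of Pggt1b floxed, and the 4 Het samples from Foxp3CrePggt1bfl/wt chimeras, with 1 floxed and 1 wild-type allele, so the controls also carried a floxed allele and Cre. Pggt1b encodes a subunit of the enzyme that attaches geranylgeranyl lipids to proteins such as small GTPases. The sources used here give no age, strain, pooling or host cells of the chimeras.

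Ikaros family proteins bind DNA through zinc fingers near the N terminus and pair with each other through zinc fingers at the C terminus, so that members can form mixed complexes. They recruit the chromatin remodelling and deacetylase complex NuRD and other corepressors such as CtBP. Ikaros is required for lymphocyte development, Helios helps to keep Treg cells stable, Aiolos acts in B cells and silences Il2 in helper T cells, and Eos works with Foxp3 as a corepressor in Treg cells. Pegasus is the most divergent member and recognises a different DNA sequence.

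Ikzf2, the gene of Helios, was the only family member that passed the main limma test across all genes. It was 2.32-fold lower in KO than in Het Treg cells. The other 4 members were all nominally higher, by 1.05-fold to 1.33-fold, without passing that test, which does not show that they were unchanged. Each value is an RMA value on the log2 scale from 1 array per sample, and each change is the KO mean minus the Het mean on that scale. The floor for a detectable signal, the 95th percentile of olfactory receptor probe sets on each array, lay between 5.48 and 5.77. All 5 members were above it on all 7 arrays, and each had 1 probe set, so the filter on dim genes removed none of them. In the limma fit, 1 of 5 members passed an adjusted p of 0.05, against 5.79% of the 13083 genes tested, and it was among the 3.24% called lower in KO. By limma, 0 of the 5 were called higher, against 2.55% of all genes. At an unadjusted limma p under 0.05, 3 of them (Ikzf1, Ikzf3 and Ikzf5) were higher. At least 2526 of the 13083 genes tested had such a p, in either direction. Levels of different members cannot be ranked, because probe sets differ in how brightly they read.

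Pggt1b itself was at 6.59 to 6.62 on the KO arrays and at 6.71 to 7.11 on the Het arrays, a change of -0.37 ± 0.13 (SE) that did not pass (limma adjusted p = 0.126). No source used here says where its probes lie relative to the deleted part, so this value does not check the deletion. Over the genes tested, Pearson correlations were 0.971 to 0.987 between arrays of 1 genotype and 0.942 to 0.964 between genotypes.

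Ikzf2, whose product Helios is carried by a large share of Treg cells, read 9.16, 9.19 and 8.74 in KO replicates 1 to 3. In Het replicates 1 to 4 it read 9.92, 10.21, 10.47 and 10.38. Every KO array lay below every Het array, with a gap of 0.73 between the highest KO and the lowest Het value, and KO replicate 3 was the lowest of all. The means were 9.03 ± 0.25 in KO and 10.24 ± 0.24 in Het samples (SD, n = 3 and 4). The change was -1.22 ± 0.16 (SE), with a 95% interval of 1.81-fold to 2.99-fold lower and a limma adjusted p of 0.00173. The exact two-sided permutation p was 0.0286, the smallest that the 35 ways of dividing 3 from 4 arrays allow. Only 76 of the 13083 genes tested (0.581%) had a more negative change. The call held in all 7 fits that each left out 1 array, where the change ran from -1.32 to -1.07. Since RNA was measured over all sorted cells, fewer cells with the transcript and less transcript per cell cannot be told apart.

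**Figure D1:**
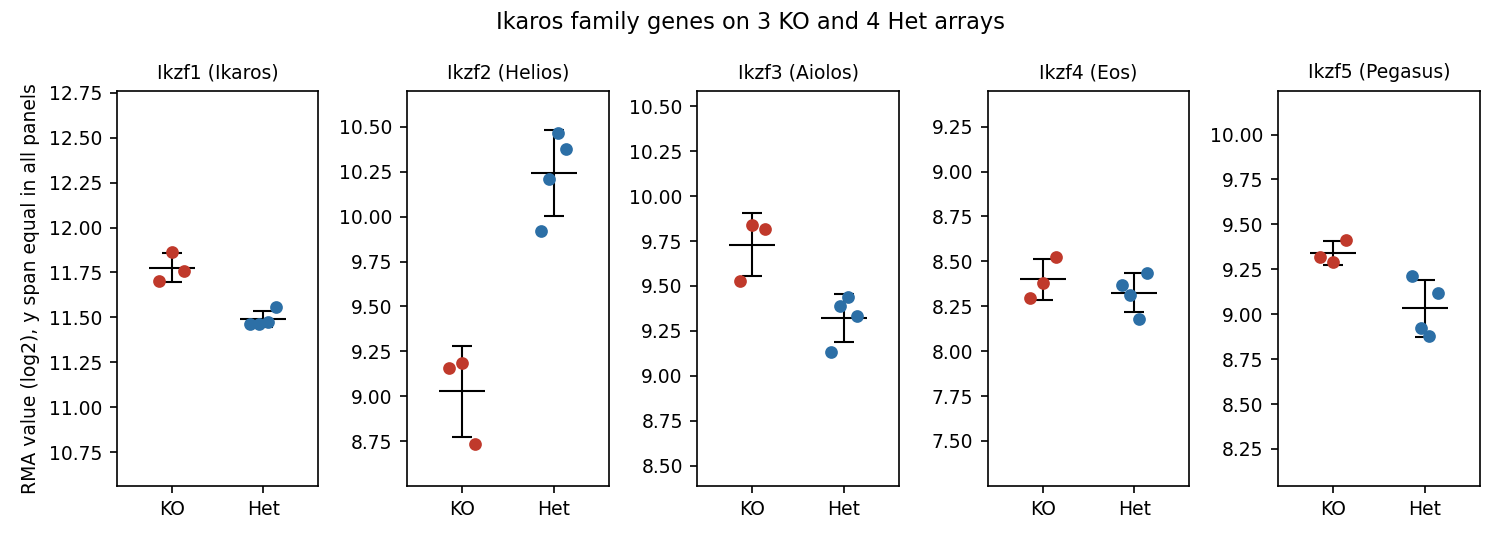
RMA values (log2) of the 5 Ikaros family genes on each array, with KO in red and Het in blue. Each point is 1 array, the long bar is the group mean and the whiskers are 1 SD (n = 3 KO and 4 Het). The y axes cover equal spans at different levels. The KO points of Ikzf2 lie below all Het points, those of Ikzf1, Ikzf3 and Ikzf5 lie above, and those of Ikzf4 overlap.

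Ikzf1, the gene of the founding member Ikaros, read 11.70, 11.86 and 11.76 in the 3 KO arrays and 11.46, 11.47, 11.47 and 11.56 in the 4 Het arrays. All KO values lay above all Het values, but the ranges were only 0.14 apart. The change of 0.28 ± 0.11 (SE) did not pass over all genes (limma adjusted p = 0.163), and the exact two-sided permutation p was 0.0286. With a mean-variance trend and a robust prior in limma, the gene passed at an adjusted p of 0.0207.

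Ikzf3, which encodes Aiolos, read 9.53, 9.84 and 9.82 in KO replicates 1 to 3 and 9.13, 9.39, 9.44 and 9.33 in Het replicates 1 to 4. Here too the groups did not overlap, with 0.092 between them. This was the largest of the upward differences, 0.41 ± 0.13 (SE) or 1.33-fold, with a 95% interval of 1.09-fold to 1.62-fold. It missed the threshold in the limma fit (adjusted p = 0.0997; exact two-sided permutation p = 0.0286) and passed with the trend and robust prior (adjusted p = 0.0386) and with array weights (adjusted p = 0.0464).

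Ikzf5, the gene of Pegasus, read 9.32, 9.29 and 9.41 in KO and 9.21, 8.92, 8.88 and 9.12 in Het arrays. The groups were 0.076 apart and the KO arrays were the higher ones. Its change was 0.31 ± 0.12 (SE), with a limma adjusted p of 0.189 and an exact two-sided permutation p of 0.0571. Ikzf4, which encodes the Foxp3 corepressor Eos, read 8.29, 8.38 and 8.52 in KO and 8.37, 8.31, 8.18 and 8.44 in Het arrays. Its groups overlapped, and the difference of 0.075 ± 0.12 (SE; limma adjusted p = 0.793) had a 95% interval from 0.88-fold to 1.26-fold of the Het level. A fall of the size seen in Ikzf2 lies outside that interval.

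Across the family, 3 members had all KO arrays above the Het arrays, 1 had all below and 1 overlapped. Among all genes tested, 9.68% had KO wholly above and 9.82% wholly below Het, 19.5% in all. The family median of 0.28 stands beside a median of -0.017 over all genes tested. The arrays did not order the members alike. Het replicate 1 had the lowest Het value of Ikzf1, Ikzf2 and Ikzf3 but the highest of Ikzf5, and KO replicate 3 had the lowest Ikzf2 and the highest Ikzf4 and Ikzf5.

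**Figure D2:**
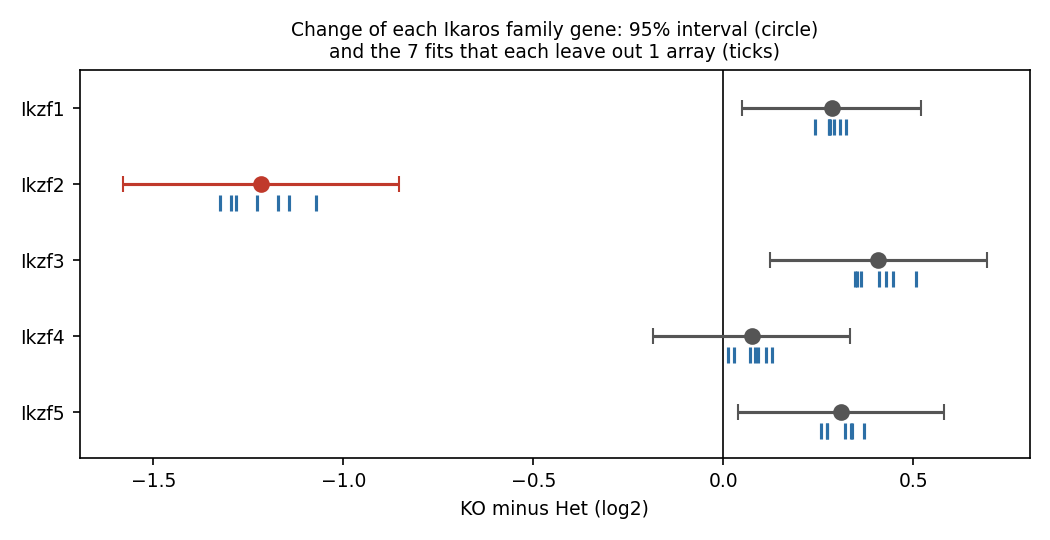
Change of each Ikaros family gene, KO minus Het on the log2 scale. Circles give the limma estimate with its 95% interval (3 KO and 4 Het arrays, red where the adjusted p is under 0.05), and blue ticks below each circle give the change with 1 array left out. The ticks of Ikzf2 run from -1.32 to -1.07, and those of the other 4 genes all lie above 0.

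The next comparison asked whether Ikzf2 moved differently from the other members, using the difference between 2 members on each array, in which a shift of the whole array cancels. Ikzf2 relative to Ikzf1 was lower in KO cells by -1.50 ± 0.18 (SE; 95% interval -1.96 to -1.04). Relative to Ikzf3 the value was -1.62 ± 0.19 (-2.11 to -1.13), relative to Ikzf4 -1.29 ± 0.25 (-1.93 to -0.65) and relative to Ikzf5 -1.53 ± 0.27 (-2.21 to -0.84). In these 4 pairs every KO array lay below every Het array. Each had the smallest exact two-sided permutation p possible, 0.0286, which became 0.0714 after Benjamini-Hochberg adjustment over the 10 pairs. None of the 10 pairs passed 0.05. With only these 4 pairs at the smallest possible p, the adjusted value could not fall under 0.05. The adjusted permutation p therefore cannot decide whether Ikzf2 alone moved differently.

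The 6 pairs without Ikzf2 moved far less, by differences of 0.33 or less in size. Ikzf1 and Ikzf3 differed in their change by -0.12 ± 0.10 (SE; 95% interval -0.37 to 0.13), and Ikzf1 and Ikzf5 by -0.024 ± 0.11 (-0.30 to 0.25). Ikzf4 moved less than Ikzf5, by -0.23 ± 0.068 (-0.41 to -0.059), with groups that did not overlap and an exact two-sided permutation p of 0.0571, or 0.114 adjusted over the pairs.

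The genes whose array pattern was nearest to that of Ikzf2 were sought by the root mean square difference between values centred on each gene's mean over the 7 arrays. The nearest 4 were the predicted genes Gm3591, Gm3317, Gm3488 and Gm5796, at 0.15 to 0.16 on the log2 scale. Gm3317 and Gm3488 had identical values on every array, so they are counted as 1 measurement and neither is certain on its own. Next came Rgs16, a regulator that shortens G protein signalling, at 0.16, which read 6.56, 6.64 and 5.80 in KO and 7.07, 7.23, 7.83 and 7.54 in Het arrays. With predicted genes set aside, a choice made after their values were seen, the next were Cyfip1, a subunit of the actin-regulating WAVE complex (0.16), the acyltransferase gene Lclat1 (0.18), the costimulatory receptor Icos (0.18) and the TNF receptor Tnfrsf1b (0.19). Cyfip1, Lclat1, Icos and Tnfrsf1b held places 6, 10, 11 and 16 among all genes tested, with further predicted genes filling the places between. All of the named genes fell in KO cells (limma). Their changes lay between -1.33 for Gm3591 and -0.96 for Tnfrsf1b. Likeness over 7 arrays rests mainly on the step between genotypes, which all of these genes share with Ikzf2.

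**Figure D3:**
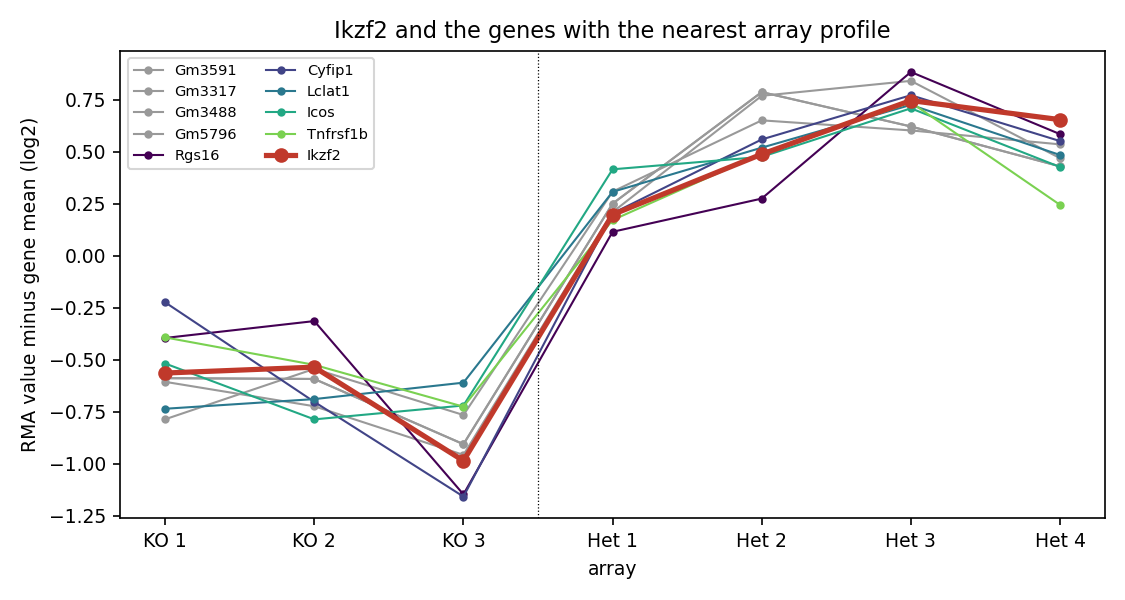
RMA values of Ikzf2 (thick red line) and 9 genes near it on each array, the 5 nearest of all and 4 more of the nearest once predicted genes were set aside, each minus that gene's mean over the 7 arrays (log2). Grey lines are the 4 predicted genes, of which Gm3317 and Gm3488 coincide, and the dotted line separates KO from Het arrays. All of the lines are lower on the 3 KO arrays than on the 4 Het arrays.

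Partner genes of the family were called about as often as all genes. Of 19 genes for NuRD subunits and other corepressors, 1 rose, none fell and 18 did not pass, so that 5.26% were called against 5.79% of all genes. Their median change was 0.13 against -0.017 over all genes tested. The gene that rose was Ctbp1, the corepressor known to bind Eos, which read 10.13, 10.15 and 10.19 in KO and 9.76, 9.68, 9.75 and 9.82 in Het arrays. Its groups were well separated, but the change of 0.41 ± 0.10 (SE) passed only narrowly (limma adjusted p = 0.0486), and the call was lost in each of the 7 fits without 1 array (adjusted p = 0.0533 to 0.149). The NuRD helicase Chd4, known to bind Ikaros directly, was at 0.28 ± 0.12 (SE; limma adjusted p = 0.243), and the deacetylase Hdac1 at 0.23 ± 0.11 (SE; limma adjusted p = 0.283).

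Cereblon, encoded by Crbn, is the substrate receptor of a CRL4 ubiquitin ligase through which drugs of the thalidomide class degrade human Ikaros and Aiolos. Of the 5 ligase genes, Crbn fell and 4 did not pass, against 3.24% of all genes called lower. Crbn read 7.85, 7.64 and 7.86 in KO and 8.21, 8.36, 8.37 and 8.19 in Het arrays, so that all KO arrays were below all Het arrays. The change was -0.50 ± 0.12 (SE), or 1.41-fold lower (limma adjusted p = 0.0304). It did not pass when any 1 of the KO arrays, Het replicate 2 or Het replicate 3 was left out (limma adjusted p = 0.0574 to 0.129). The scaffold gene Cul4a, at 0.62 ± 0.17 (SE), did not pass (limma adjusted p = 0.0638), and only 1 of 4 Het arrays exceeded the floor.

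Among 21 tested genes for Foxp3 and factors that work with it, 1 rose, none fell and 20 did not pass, at a median of 0.081. This was 4.76% called, against 5.79% of all genes. Foxp3 itself ranged from 11.16 to 11.36 on KO arrays and from 11.01 to 11.24 on Het arrays, a difference of 0.062 ± 0.12 (SE; limma adjusted p = 0.836) with a 95% interval from -0.20 to 0.32. Its groups overlapped, unlike those of Ikzf2. The gene that rose was Satb1, a chromatin organiser that Foxp3 represses, by 0.68 ± 0.14 (SE; limma adjusted p = 0.0167). That call was lost without KO replicate 2 (adjusted p = 0.0757) or KO replicate 3 (0.0747).

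Of 24 genes reported under the control of Ikaros family proteins in lymphocytes, 18 were tested. The 6 left out as too dim included Il2 and Ifng, both below the floor on every array. Myc, a driver of growth that Ikaros represses in B cell precursors, rose by 0.55 ± 0.10 (SE; limma adjusted p = 0.0113). Prdm1, which encodes the effector factor Blimp-1, fell by at least 2.15-fold (limma adjusted p = 0.00051), and the cytokine gene Il10 by at least 1.15-fold (limma adjusted p = 0.00153). No KO array was above the floor for either, so only a bound can be given. Both entered the test through Het arrays alone, 4 for Prdm1 and 3 for Il10. Their p-values and the share called therefore rest in part on KO values under the floor. The remaining 15 did not pass, so 16.7% were called against 5.79% of all genes, and the median over the 18 was -0.059. Of these, the IL-6 receptor gene Il6ra and the Th1 factor Tbx21 lay nearest the threshold. Il6ra was at 0.38 ± 0.12 (SE, limma adjusted p = 0.0859) and Tbx21 at -0.61 ± 0.19 (SE, limma adjusted p = 0.0909). For Tbx21, 2 of 3 KO arrays exceeded the floor, so the floor limits the size of its change.

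Related zinc finger factors changed in both directions. Of 25 tested lymphoid zinc finger genes outside the family, 3 rose, 3 fell and 19 did not pass, so 24% were called against 5.79% of all genes. Prdm1, also in the previous list, fell with no KO array above the floor. Zbtb32, a repressor of lymphocyte activation, fell by 1.30 ± 0.17 on the log2 scale (SE). Plagl1 fell from 7.89 ± 0.43 in Het to 6.10 ± 0.67 in KO samples (SD, n = 4 and 3), with 2 of 3 KO arrays above the floor. The quiescence factors Klf2 (0.70 ± 0.14, SE) and Klf3 (0.81 ± 0.12) and the repressor Zeb2 (0.78 ± 0.17) rose. Klf2 did not pass when replicate 2 or 3 of either genotype was left out (limma adjusted p = 0.0514 to 0.0753), and Zeb2 did not when replicate 1 or 3 of either genotype was (limma adjusted p = 0.0661 to 0.0825). Klf3, Zbtb32, Plagl1 and Myc passed in all 14 alternative fits. Prdm1 did as well, with the same limit of KO values under the floor.

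**Figure D4:**
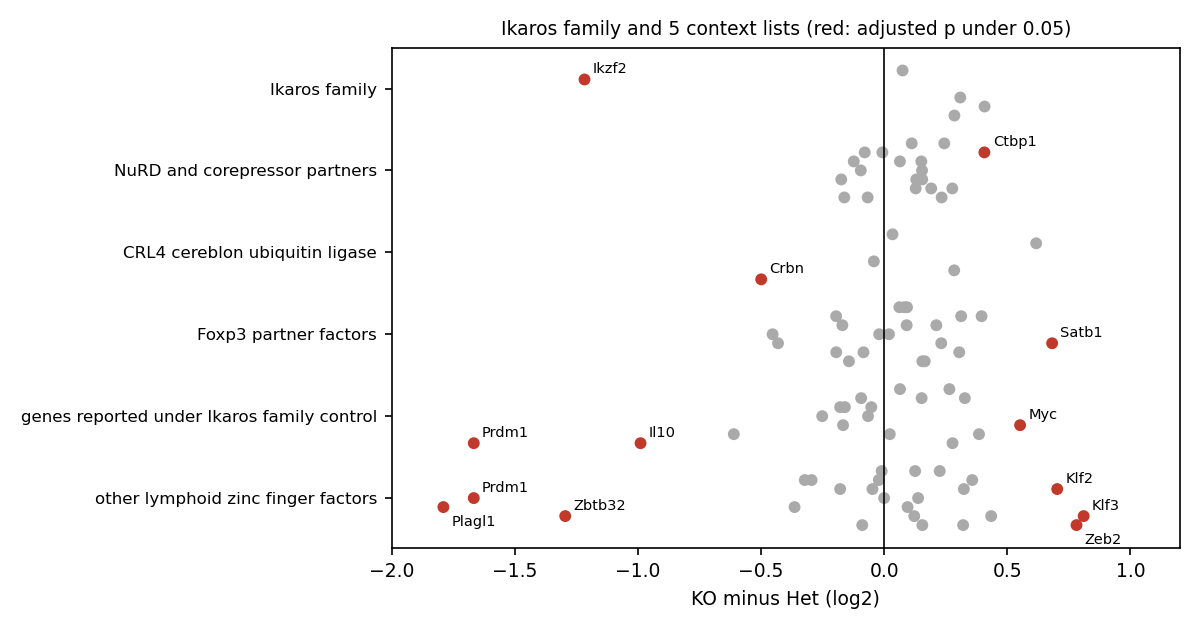
Change of each tested gene, KO minus Het on the log2 scale, for the Ikaros family and 5 lists of related genes. Each point is 1 gene, red and named where the limma adjusted p is under 0.05, and the height within a row carries no meaning. Ikzf2 lies far to the left of the other 4 family members, while Ctbp1, Satb1 and Myc lie to the right of 0.

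Transcripts of other cell types moved with genotype on the same arrays, and Ikaros family genes are also expressed in B cells and dendritic cells. Of 22 myeloid markers, 17 were tested and 12 rose, so 70.6% were called against 5.79% of all genes, and the list mean was 6.50 to 7.57 for KO against 5.46 to 5.95 for Het. Of 12 markers of plasmacytoid dendritic cells, 10 were tested and 4 rose (40% called), with list means of 7.39 to 7.86 for KO against 6.66 to 6.88 for Het. S100a8 and S100a9 were below the floor on all arrays. Conventional CD4 T cell markers were also higher without overlap, with list means of 8.03 to 8.36 for KO against 7.88 to 7.94 for Het. Of the 8 tested (37.5% called), Pde3b rose 3.25-fold and Actn1 1.61-fold, Cd226 fell, and 5 did not pass. Changes were positive in 5 and negative in 3, so the markers did not all move in the same direction. Their median was 0.18, against -0.017 over all genes tested. Il2 was below the floor on all arrays. The list means of CD8 T and NK cell markers overlapped, at 6.004 to 6.32 for KO against 5.80 to 6.14 for Het. Of the 5 tested (60% called), Cd8b1 and Eomes rose and Nkg7 fell, and the NK cell markers Ncr1 and Klrb1c were below the floor on all arrays. B cell markers overlapped between groups, with list means of 5.80 to 6.05 for KO against 5.71 to 6.01 for Het, 1 of 7 tested rose (14.3% called) and none fell, and Cr2 was below the floor on all arrays. By limma, 0 of 6 erythroid and platelet markers and 0 of 2 plasma cell markers passed, of which only Derl3, a plasma cell marker, was under 0.05 before adjustment, and the list means of both overlapped between groups. Erythroid and platelet means were 6.53 to 7.88 for KO against 6.12 to 7.48 for Het. Changes of the 6 tested were positive in 5 and negative in 1, with a median of 0.79. The list mean of the 12 Treg and T cell markers was lower without overlap, at 10.29 to 10.49 for KO against 10.52 to 10.65 for Het. Of the 12, 1 was called (8.33%), Ctla4, which fell. Il2ra exceeded the floor on only 1 of 3 KO and 2 of 4 Het arrays. The part of transcripts from other cell types in the values of the 5 family members was not tested. Nor was it tested for the other named genes, such as Zeb2.

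**Figure D5:**
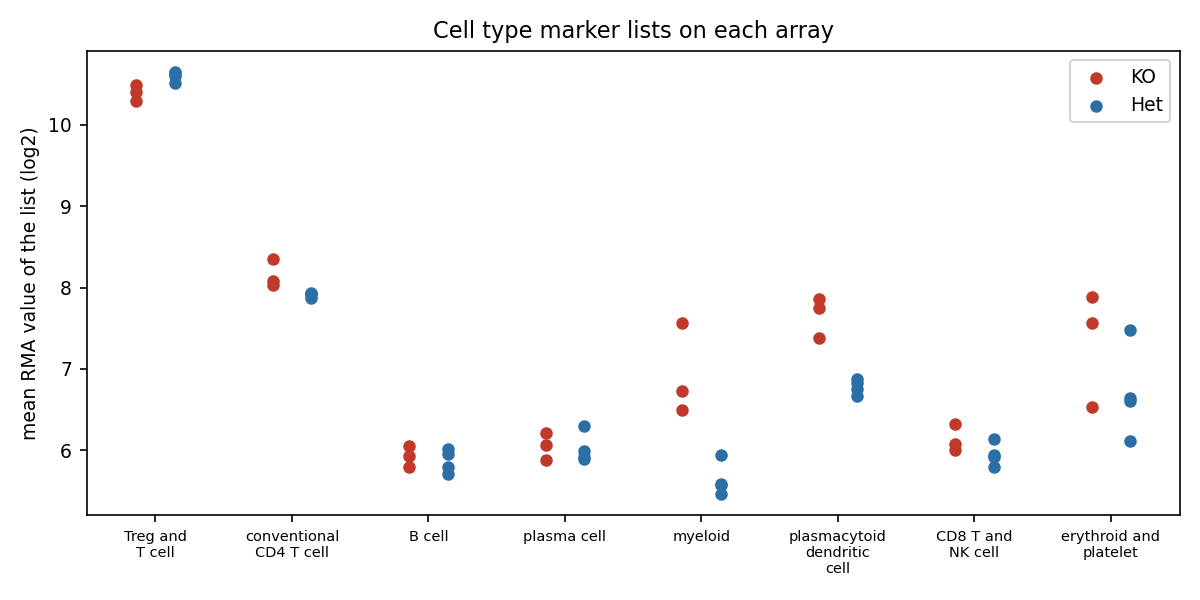
Mean RMA value (log2) of 8 cell type marker lists on each array, with KO in red and Het in blue. Each point is 1 array. Myeloid, plasmacytoid dendritic cell and conventional CD4 T cell lists are higher in KO arrays without overlap, the Treg and T cell list is lower without overlap, and the other 4 lists overlap.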

How the data were processed

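Expression in 7 Treg samples, 3 KO and 4 Het, was measured on single-colour arrays after amplification from 1 to 20 ng of RNA, per the labels' protocols. The deposited values are log2 RMA values that the authors computed in Affymetrix Expression Console 1.1, per the submitters' processing notes. RMA equalises probe intensities between arrays before it summarises them, which damps a shift shared by most genes, and the medians of the deposited values over all probe sets still ran from 5.93 to 6.12. No source used here gives the array design, genome build, scan date or batch.

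Gene symbols came from the deposited table, and names such as Helios from RefSeq synonyms. The brightest probe set stood for each gene. Genes were kept where at least 3 arrays exceeded the array's 95th percentile of 1117 olfactory receptor probe sets, which left 13083 of 21902. They were fitted with limma 3.58.1 in R 4.3.3 and adjusted by Benjamini-Hochberg over all kept genes at 0.05. Where a group had no array above the floor, the fold is a bound against the floor. Intervals of member pairs use the pooled SD on 5 degrees of freedom. On simulated data for 13083 genes in KO against Het, 28% of 50 genes changed by 0.5 and 98% of 50 changed by 1 (log2) were recovered. That simulation gave 175 calls in all, against 757 in the real data, so recovery in the real data may differ. Replicates were numbered in order of deposit. The labels do not tie them to separate animals, so the spread behind each p-value may be technical, and the number of arrays limits precision.

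The family, gene lists and tests were chosen with earlier results of these data known. Named genes are the family, Pggt1b, the 5 genes nearest each called member, list members past the threshold, and others by smallest p or by role, chosen after their values were seen. The alternatives were median centring, quantile normalization, no filter, a strict filter (above the floor on all arrays of a group), the mean of probe sets, a mean-variance trend with a robust prior, array weights, and leaving out each array.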

Additional observations from a re-analysis of the deposited data

Results flagged for a closer look

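Among 26 genes examined for a Het array far from the others, Ikzf1 was the only one that stood out. Het replicate 4 read 11.56, while the other 3 Het arrays read 11.46 to 11.47, and its gap to the nearest covered 0.907 of the group's range. It lay towards the KO values, and without it the change of Ikzf1 was 0.31 (limma adjusted p = 0.155). Dixon's 95% critical value was used, which chance passes in about 5% of groups.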

How the results depend on the processing

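The fall of Ikzf2 kept its direction and passed in all 14 alternatives, between -1.32 and -1.07 (limma adjusted p = 8.4e-05 to 0.00918), and Ikzf4 and Ikzf5 never passed. With the mean-variance trend and robust prior, 2 members were higher, Ikzf1 (0.28) and Ikzf3 (0.41), and with array weights 1, Ikzf3 (0.41). Risen Foxp3 partners and risen reported target genes each numbered 2 instead of 1 under both of these settings. Array weights called 547 genes higher and 697 lower, against 333 and 424. Quantile normalization called 0 NuRD or corepressor genes and 1 risen ligase gene, no filter called 0 NuRD or corepressor genes, and the strict filter 1 fallen target gene. Leaving out 1 array gave 180 to 293 higher and 234 to 459 lower genes. It left 0 risen NuRD or corepressor genes, 0 to 1 fallen and 0 to 1 risen ligase genes, 0 to 1 risen Foxp3 partners, 1 to 2 fallen targets and 1 to 3 risen zinc finger factors. Counts of higher genes were 206, 199 and 180 without KO replicates 1, 2 and 3 in turn, and 210 without Het replicate 3. Counts of lower genes were 246 and 266 without KO replicates 2 and 3, and 248 and 234 without Het replicates 2 and 3. Fewer samples enter these fits, and other causes were not tested. Il10 was tested in 10 of the 14 alternatives and fell in each. It dropped out with the strict filter and without Het replicate 1, 2 or 3, the only arrays where it exceeded the floor. No paired analysis was possible because the labels give no replicate numbers shared between the groups. All 5 members read at least 2.55 above the floor (log2), so background limits dim genes such as Il10, not the family.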
